A study of Mus musculus with 11 samples.

Results

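The genes described here build ribosomes in the nucleolus. The list named 39 genes, and 36 of them had a probe set of their own among 22180 genes measured on the array. Fbl, Mrto4 and Tsr1 were named only by probe sets that also name other genes, so no value is given for them. Where a gene had several probe sets, the brightest on average across the 9 arrays of whole stomach was used.

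Ribosomes are made in the nucleolus, where RNA polymerase I copies the ribosomal DNA into a long precursor. Small nucleolar ribonucleoproteins (snoRNPs) modify that precursor, and large protein assemblies fold and cut it into the 40S and 60S subunits. The growth kinase mTORC1 promotes this work, in part through the polymerase I initiation factor encoded by Rrn3, and Myc is known to activate many of the genes.

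The animals were adult C57Bl/6 mice. Whole stomachs were taken from those injected daily into the peritoneum with sunflower oil (vehicle, n = 2), with tamoxifen (n = 2), with rapamycin (n = 3), or with rapamycin and tamoxifen together (n = 2). The tamoxifen dose, of a ligand of oestrogen receptors, was 5 mg per 20 g of body weight over 3 days. The dose of rapamycin, an mTORC1 inhibitor, was 0.6 mg per 20 g over 10 days. A further array held isolated parietal cells, the acid-secreting cells of the gastric gland, and another held the stomach cells left after their removal. The series title speaks of acutely damaged stomach, while the vehicle group received neither drug. The design asks what each drug does alone and whether rapamycin alters the response to tamoxifen. Arrays of a group are titled as biological replicates, without saying that each is a separate mouse, so p-values measure the spread between these samples.

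Values are log2 expression, and a difference of 1 is a doubling. The array medians lay between 4.95 and 5.09 in whole stomach and at 3.67 and 3.68 in the fractions, which are compared only with each other. Squamous forestomach genes differed within the tamoxifen and rapamycin groups, and were higher in both combined arrays than in both vehicle arrays. Their mean over 15 genes was 5.17 and 4.85 in vehicle, 9.64 and 5.00 in tamoxifen, 9.56, 8.37 and 5.51 in rapamycin and 8.87 and 9.16 in the combined group. Parietal-cell genes, 16 in all, had means from 9.38 to 10.64, so the tissue carried its defining markers.

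All 36 genes had a higher mean with tamoxifen than without it, both in mice without and in mice with rapamycin. Promoters of members that share a motif are shown as a description. RefSeq windows (GRCm38.p6) of 300 bases, 250 before and 50 after the transcription start, were listed for 34 of the 39 genes; Fbl, Rrp12, Bop1, Rrs1 and Npm1 had no entry. The letters CACGTG, the E-box that Myc and Max bind, were searched; the motif reads the same on both strands. It lay in the windows of 8 of these 34 genes (23.5%), against 8.09% of the 27025 genes in the table and 9.19% of the 16990 that were measured here. The median GC content of the members' windows was 58.3%, against 56.7% in the windows of genes measured here and 52.7% over all windows. Below are 4 members with the motif that rose with tamoxifen and, for contrast, Rrn3, which holds 2 copies and was not called; capitals mark the motif, and each is written 5′ to 3′ on the gene's own strand.
Nop2 promoter, chr6:125131633-125131932, plus strand: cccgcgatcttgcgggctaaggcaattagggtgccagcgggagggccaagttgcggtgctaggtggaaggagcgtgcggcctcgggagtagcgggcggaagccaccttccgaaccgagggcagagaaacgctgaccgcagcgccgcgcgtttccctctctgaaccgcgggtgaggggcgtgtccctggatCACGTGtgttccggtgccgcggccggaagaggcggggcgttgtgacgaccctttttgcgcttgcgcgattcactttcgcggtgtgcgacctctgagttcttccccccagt
Pes1 promoter, chr11:3963725-3964024, plus strand: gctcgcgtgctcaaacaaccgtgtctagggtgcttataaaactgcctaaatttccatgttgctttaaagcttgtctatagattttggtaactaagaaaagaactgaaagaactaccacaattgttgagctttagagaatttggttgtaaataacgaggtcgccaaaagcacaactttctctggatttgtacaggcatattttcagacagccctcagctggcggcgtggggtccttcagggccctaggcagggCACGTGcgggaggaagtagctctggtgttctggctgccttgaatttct
Utp20 promoter, chr10:88826765-88827064, minus strand: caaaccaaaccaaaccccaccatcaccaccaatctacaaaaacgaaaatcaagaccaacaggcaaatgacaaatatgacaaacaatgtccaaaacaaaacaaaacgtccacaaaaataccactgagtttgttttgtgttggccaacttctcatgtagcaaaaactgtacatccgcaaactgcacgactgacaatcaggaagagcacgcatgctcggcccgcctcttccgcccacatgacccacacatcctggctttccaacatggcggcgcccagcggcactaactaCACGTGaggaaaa
Wdr43 promoter, chr17:71615965-71616264, plus strand: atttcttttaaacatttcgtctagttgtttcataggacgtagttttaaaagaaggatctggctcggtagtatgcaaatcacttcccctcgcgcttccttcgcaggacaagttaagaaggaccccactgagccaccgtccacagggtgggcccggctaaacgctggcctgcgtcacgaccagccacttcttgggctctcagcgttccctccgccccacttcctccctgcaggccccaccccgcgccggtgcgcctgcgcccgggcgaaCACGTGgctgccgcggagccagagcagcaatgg
Rrn3 promoter, chr16:13780449-13780748, plus strand: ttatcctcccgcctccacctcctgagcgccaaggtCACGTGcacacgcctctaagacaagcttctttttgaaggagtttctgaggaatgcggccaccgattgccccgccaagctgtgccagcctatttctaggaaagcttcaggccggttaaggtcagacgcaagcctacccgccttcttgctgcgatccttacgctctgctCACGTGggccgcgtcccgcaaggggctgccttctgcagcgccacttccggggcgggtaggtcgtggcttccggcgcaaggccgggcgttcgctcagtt
In Nop2 the motif began 60 bases before the start, and in Pes1, Wdr43 and Utp20 it began 2, 17 and 37 bases after it. In Rrn3 the copies began 215 and 48 bases before the start. Whether the changes differ between members with and without the motif was not tested. Of 7 measured members with it, 4 were called higher with tamoxifen averaged over rapamycin (median log2 change 0.46), and of 25 with a window but no motif, 18 were called (median 0.62). A match is a description of these letters and says nothing of a bound factor.

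Tamoxifen was followed by higher values of nearly all of these genes. Averaged over mice with and without rapamycin, 23 of 36 rose at an adjusted p under 0.05 and 0 fell, where 3.24% of all genes rose and 2.61% fell (limma, Benjamini-Hochberg adjusted over 22180 genes). All 36 changes were positive, with a median of 0.58 against -0.02 over all genes and a range from 0.07 for Nop10 to 1.10 for Gnl3. The 4 arrays with tamoxifen lay above all 5 arrays without it for 27 of the 36, where 4.99% of all genes separated upward and 4.32% downward. The exceptions were Nop10, Nop14, Rrp9, Rrp12, Utp18, Ltv1, Rrs1, Rrn3 and Ncl. With the squamous mean as a covariate 18 were called. Leaving out 1 array in turn gave from 9 (without the first combined array) to 23, and the count was 14 without vehicle 1, rapamycin 3 or the second combined array.

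**Figure D1:**
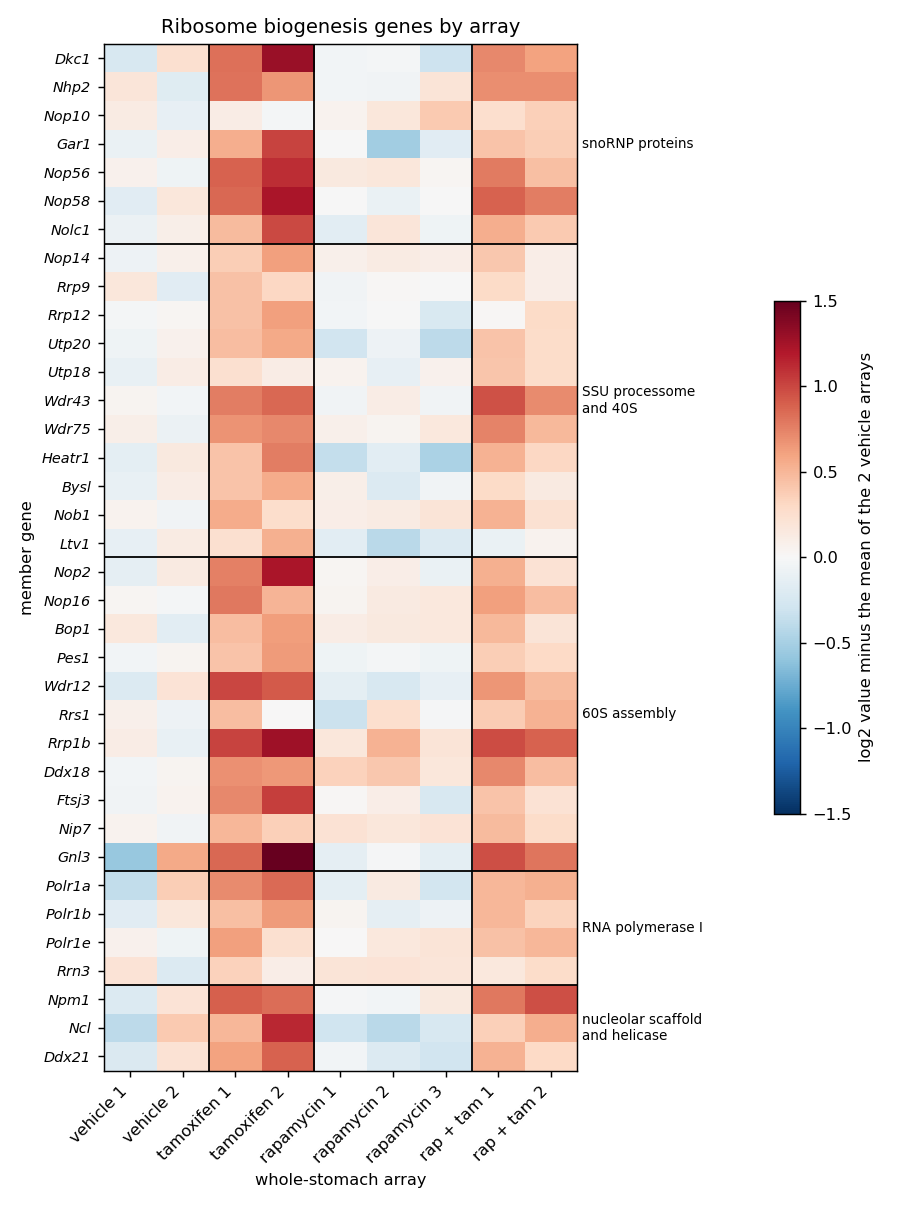
Log2 value of each of the 36 genes (rows, grouped by role) in each of the 9 whole-stomach arrays (columns), minus the mean of the 2 vehicle arrays; red is higher and blue lower, and the colour scale is capped below the value of Gnl3 in tamoxifen 2. The tamoxifen and combined columns are red for most genes, while the rapamycin columns stay near 0.

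In the comparison of tamoxifen with vehicle, 9 of 36 rose and 0 fell, where 0.933% of all genes rose and 0.784% fell. The median was 0.66, and the tamoxifen arrays lay above both vehicle arrays for 32 genes, where 13.4% of all genes did so. Under rapamycin, the combined group against rapamycin alone, 4 rose and 0 fell, where 1.13% of all genes rose and 1.32% fell. The median was 0.48. There the arrays separated upward for 33 genes, against 18.7% of all genes upward and 20.4% downward. These comparisons share no arrays, though they share the fit's estimate of spread. All 36 genes were higher in both, as were 29.9% of all genes. The combined group against vehicle, which shares its vehicle arrays with the tamoxifen comparison, had 3 rises, Wdr43 (0.83), Rrp1b (0.93) and Npm1 (0.88), where 0.41% of all genes rose, with a median of 0.41.

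These counts rest on few arrays. With the squamous mean as a covariate, tamoxifen against vehicle had 2 calls and the combination against vehicle 0. Fitted on only the groups compared, each of those comparisons had 0 calls, while the combination against rapamycin had 10. With the replicate number as a block, tamoxifen against vehicle, the combination against vehicle and the combination against rapamycin each had 0 calls. Leaving out 1 array gave from 0 to 5 calls in both tamoxifen against vehicle and the combination against rapamycin. The first comparison had 0 calls without vehicle 1 or tamoxifen 2, 4 without vehicle 2, 5 without tamoxifen 1, and 1 or 2 without any rapamycin or combined array, and the second had 0 without any rapamycin array or either combined array. The 3 calls of the combination against vehicle became 0 without vehicle 1 or any rapamycin or combined array, and 1 without vehicle 2. In the first 2 comparisons the medians over the members ran from 0.53 to 0.67 and from 0.38 to 0.54.

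Of 7 snoRNP proteins measured, 6 rose with tamoxifen averaged over rapamycin (median 0.70). Nop58, a core protein of the box C/D particles that guide methylation of ribosomal RNA, read 8.50 and 8.84 in vehicle, 9.53 and 9.89 in tamoxifen, 8.67, 8.57 and 8.67 in rapamycin, and 9.55 and 9.43 in the combined group. The groups with tamoxifen did not overlap those without, and the change was 0.95 ± 0.12 (adjusted p = 0.00208, limma). It rose in both settings, by 1.04 ± 0.17 without rapamycin (adjusted p = 0.0245, limma) and by 0.86 ± 0.16 with it (adjusted p = 0.0276, limma). Those calls held in 2 and 4 of 9 fits with an array left out.

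Nop56, its partner in the same particle, read 8.83 and 8.69 in vehicle, 9.64 and 9.86 in tamoxifen, 8.90, 8.93 and 8.79 in rapamycin, and 9.54 and 9.21 in the combined group. The lowest array with tamoxifen was the second combined one, still above every array without. Nop56 rose by 0.99 ± 0.16 against vehicle (adjusted p = 0.0226, limma) and stood at 0.50 ± 0.15 under rapamycin (adjusted p = 0.14, limma). Its call against vehicle held in 4 of 9 fits with an array left out.

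Dkc1 encodes dyskerin, the pseudouridine synthase of the box H/ACA particles. Its values were 6.72 and 7.20 in vehicle, 7.79 and 8.26 in tamoxifen, 6.92, 6.93 and 6.65 in rapamycin, and 7.68 and 7.56 in the combined group. The vehicle arrays differed by about as much as the tamoxifen arrays did, without overlap between the groups. The averaged change was 0.93 ± 0.15 (adjusted p = 0.00664, limma). Against vehicle Dkc1 passed narrowly at 1.06 ± 0.22 (adjusted p = 0.0496, limma), and that call held in 1 of 9 fits with an array left out. The averaged calls of Dkc1, Nop56, Nop58 and Nhp2 held in all 9 such fits.

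Of the other H/ACA proteins, Nhp2 (0.70) and Gar1 (0.70) rose and Nop10 did not pass (0.07 ± 0.11, adjusted p = 0.838, limma). Nop10 read from 10.15 to 10.66 over the 9 arrays, and its groups overlapped. The particle's 4 proteins thus differed in the call: Dkc1, Nhp2 and Gar1 passed and Nop10 did not; whether Nop10 differs from them was not tested. Nolc1, a nucleolar chaperone of snoRNPs, rose by 0.61. The calls of Gar1 and Nolc1 held in 4 and 3 of 9 fits with an array left out.

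**Figure D2:**
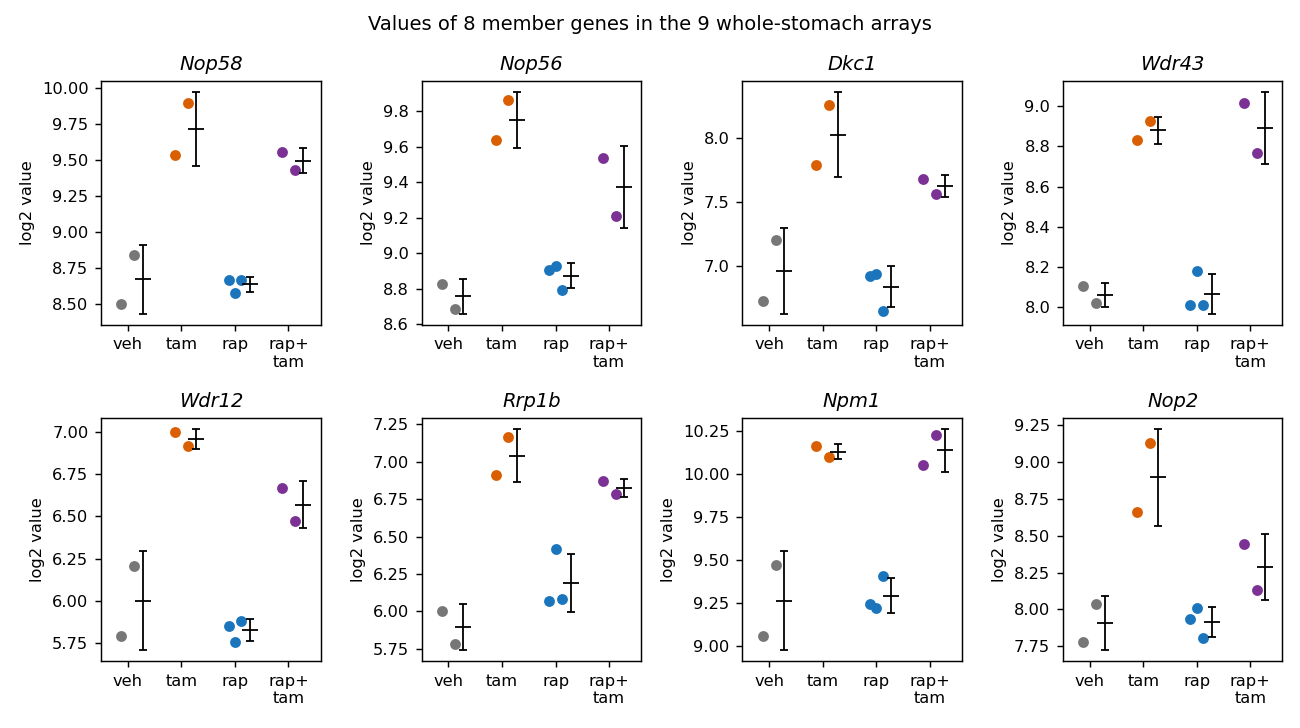
Log2 values of 8 genes in each whole-stomach array (dots) by group, with the mean and SD of the group as a black bar (n = 2, 2, 3 and 2). For each of the 8 the tamoxifen and combined dots lie above all vehicle and rapamycin dots. The combined mean is below the tamoxifen mean for Nop2, Dkc1, Wdr12, Nop56, Nop58 and Rrp1b, though none was called in that comparison. Wdr43 and Npm1 are nearly level.

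The small-subunit processome and 40S assembly factors had 4 rises among 11 measured (median 0.38): Wdr43, Wdr75, Utp20 and Heatr1. All 4 encode processome proteins. Wdr43 read 8.10 and 8.02 in vehicle, 8.83 and 8.93 in tamoxifen, 8.01, 8.18 and 8.01 in rapamycin, and 9.02 and 8.77 in the combined group. Its values with tamoxifen were alike whether or not rapamycin was given, and the averaged change was 0.82 ± 0.10 (adjusted p = 0.00185, limma). It was the member of smallest p in that comparison and under rapamycin (0.83 ± 0.13, adjusted p = 0.0152, limma). The call under rapamycin held in 4 of 9 fits with an array left out.

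Wdr75 read 7.68 and 7.51 in vehicle, 8.27 and 8.31 in tamoxifen, 7.67, 7.64 and 7.75 in rapamycin, and 8.34 and 8.08 in the combined group, an averaged change of 0.61 ± 0.10 (adjusted p = 0.00677, limma). Utp20 read 6.64 and 6.76, then 7.16 and 7.27, then 6.42, 6.63 and 6.31, then 7.13 and 6.98 in the same order of groups. Its averaged change was 0.56 ± 0.10 (adjusted p = 0.0141, limma), and the rapamycin arrays were the lowest. Heatr1 rose by 0.67.

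Members of this class that act late, at export or in the cytoplasm, did not pass in any comparison. Nob1, the nuclease that makes the final cut of 18S ribosomal RNA, stood at 0.32 ± 0.11 averaged over rapamycin (adjusted p = 0.134). Ltv1, a 40S export factor, stood at 0.31 ± 0.11 (adjusted p = 0.179) and Bysl, which binds late 40S precursors, at 0.38 ± 0.11 (adjusted p = 0.0789, limma). Rrp12 (0.39), Nop14 (0.32), Rrp9 (0.29) and Utp18 (0.26) did not pass either. These include processome proteins, so the calls did not follow the stage of assembly throughout.

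Among 11 measured 60S assembly factors, 8 rose (median 0.54). Rrp1b, a nucleolar protein of the RRP1 family, read 6.01 and 5.79 in vehicle, 6.91 and 7.17 in tamoxifen, 6.07, 6.42 and 6.08 in rapamycin, and 6.87 and 6.78 in the combined group. It had the smallest p of the members against vehicle, at 1.15 ± 0.17 (adjusted p = 0.0187, limma), a call that held in 6 of 9 fits with an array left out. The averaged change was 0.89 ± 0.12 (adjusted p = 0.00281, limma).

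Pes1, Bop1 and Wdr12 encode the PeBoW complex, which is needed to process the 60S precursor RNA. Wdr12 read 5.79 and 6.21 in vehicle, 7.002 and 6.92 in tamoxifen, 5.85, 5.76 and 5.88 in rapamycin, and 6.67 and 6.47 in the combined group. The vehicle arrays were apart by more than the tamoxifen arrays were, and the groups did not overlap. It rose by 0.85 ± 0.11 (adjusted p = 0.00293, limma). Pes1 rose by 0.46 ± 0.09 (adjusted p = 0.0192, limma), with its call held in 2 of 9 fits, and Bop1 stood at 0.37 ± 0.11 (adjusted p = 0.096).

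Nop16 read 7.22 and 7.16 in vehicle, 7.98 and 7.70 in tamoxifen, 7.23, 7.32 and 7.35 in rapamycin, and 7.81 and 7.66 in the combined group. It rose by 0.54 ± 0.10 (adjusted p = 0.0137, limma). Nop2, a ribosomal RNA methyltransferase, read 7.78 and 8.04 in vehicle, 8.66 and 9.13 in tamoxifen, 7.93, 8.01 and 7.80 in rapamycin, and 8.44 and 8.13 in the combined group. The combined arrays lay between the tamoxifen arrays and all the others. Gnl3, which encodes nucleostemin, a nucleolar GTP-binding protein of proliferating cells, had the largest averaged change (1.10 ± 0.23, adjusted p = 0.0266, limma). Its vehicle arrays read 6.88 and 8.01, a gap as wide as the change, and its call held in 3 of 9 fits. Ftsj3 (0.62) and the helicase gene Ddx18 (0.47) rose, with calls held in 7 and 1 of 9 fits. Nip7 (0.30) and Rrs1 (0.36) did not pass.

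RNA polymerase I subunits rose in 2 of 3 cases. Polr1a, the largest subunit, read 6.68 and 7.42 in vehicle, 7.76 and 7.90 in tamoxifen, 6.90, 7.18 and 6.78 in rapamycin, and 7.55 and 7.59 in the combined group. It rose by 0.70 ± 0.16 (adjusted p = 0.0378, limma), and the call held in 1 of 9 fits. Polr1b, the second-largest subunit, read 6.56 and 6.91, then 7.18 and 7.38, then 6.78, 6.60 and 6.66, then 7.24 and 7.07 in that order of groups. It rose by 0.51 ± 0.11 (adjusted p = 0.031, limma), with the call held in 2 of 9 fits. Polr1e stood at 0.39 ± 0.11 (adjusted p = 0.0782).

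Rrn3, the initiation factor through which mTORC1 acts on polymerase I, read 8.21 and 7.79 in vehicle, 8.35 and 8.10 in tamoxifen, 8.19, 8.21 and 8.18 in rapamycin, and 8.16 and 8.28 in the combined group. Its groups overlapped, and the averaged change was 0.12 ± 0.11 (adjusted p = 0.682, limma). These are transcript levels, and the factor's phosphorylation was not measured.

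The nucleolar scaffold and helicase genes all rose, 3 of 3. Npm1 encodes nucleophosmin, an abundant protein of the nucleolus. Its values were 9.06 and 9.47 in vehicle, 10.16 and 10.10 in tamoxifen, 9.25, 9.22 and 9.41 in rapamycin, and 10.05 and 10.23 in the combined group. The groups with and without tamoxifen were apart, with the combined arrays as high as those of tamoxifen alone. The averaged change was 0.86 ± 0.11 (adjusted p = 0.00291, limma).

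Ncl, which encodes nucleolin, was the most uneven of these. It read 8.91 and 9.69 in vehicle, 9.80 and 10.43 in tamoxifen, 8.997, 8.90 and 9.06 in rapamycin, and 9.66 and 9.84 in the combined group. Vehicle 2 reached the level of the combined arrays, so the groups overlapped, and the change was 0.79 ± 0.18 (adjusted p = 0.0399, limma; held in 2 of 9 fits). Ddx21, a helicase of ribosomal RNA transcription and processing, read 7.88 and 8.32 in vehicle, 8.70 and 8.98 in tamoxifen, 8.05, 7.89 and 7.80 in rapamycin, and 8.62 and 8.40 in the combined group. It rose by 0.67 ± 0.13 (adjusted p = 0.0174, limma).

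With rapamycin alone the median change of these genes was near 0. Against vehicle, limma called 0 of 36, with 0 at an unadjusted p under 0.05, where 0.00902% of all genes rose and 0.0406% fell. The median was -0.01 against -0.02 over all genes, and the changes ran from -0.33 (Heatr1) to 0.31 (Ddx18). With 1 array left out the median ran from -0.0986 (without vehicle 1) to 0.06 (without vehicle 2), and it was 0.0339 with the squamous covariate. Ddx18, the member of smallest p, read 7.35 and 7.44 in vehicle and 7.74, 7.80 and 7.56 in rapamycin, a change of 0.31 ± 0.14 (adjusted p = 0.559). The rapamycin arrays lay above both vehicle arrays for 6 members and below them for 3, against 12.7% and 14.3% of all genes. A missed threshold does not show equal levels, and for a member the standard error ran from 0.12 to 0.31.

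In mice given tamoxifen, rapamycin went with lower values that did not pass. The combined group against tamoxifen gave 0 calls in limma among the 36, with 6 at an unadjusted p under 0.05, and 0% of all genes were called in either direction. The median was -0.21 against -0.02 over all genes. Of the 36, 30 were lower and 6 higher, where 45.9% of all genes were higher. That median was -0.32 without tamoxifen 1, -0.12 without tamoxifen 2, -0.0851 without the second combined array and -0.13 with quantile normalization repeated. Both combined arrays lay below both tamoxifen arrays for 15 members and above them for 2, against 20.3% and 16.1% of all genes. By group means, 29 members had tamoxifen highest and the combined group second. The share of all genes with that order was not counted. All 36 were higher with tamoxifen in both settings, which fixes part of the order.

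Ftsj3 had the smallest p there. It encodes a methyltransferase of 60S assembly and read 8.25 and 8.57 in tamoxifen against 7.96 and 7.76 in the combined group, with 7.49 and 7.58 in vehicle and 7.56, 7.64 and 7.29 in rapamycin. The difference was -0.55 ± 0.17 (adjusted p = 0.814, limma). Nop2 differed by -0.61 ± 0.20, Ltv1 by -0.41 ± 0.17, Wdr12 by -0.39 ± 0.17, Rrp12 by -0.38 ± 0.15 and Nop56 by -0.38 ± 0.16, all with an adjusted p of 0.814. Npm1 (0.01 ± 0.17) and Wdr43 (0.01 ± 0.14) were nearly level, as were Nhp2 (-0.04), Nob1 (-0.03) and Rrn3 (-0.01).

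**Figure D3:**
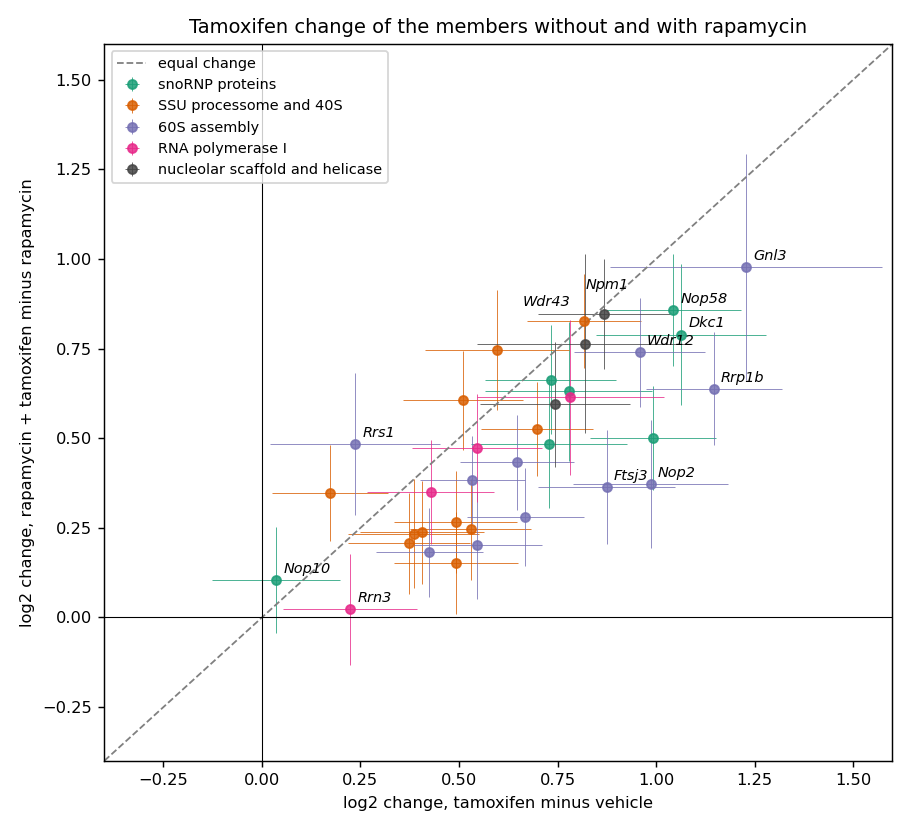
Log2 change with tamoxifen in mice without rapamycin (horizontal) and with rapamycin (vertical) for each of the 36 genes, with limma standard errors and colours by role; the dashed line marks equal change. All points lie above 0 on both axes, and 30 of the 36 lie below the line.

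The interaction term asks directly whether the tamoxifen change differs with rapamycin. Limma called 0 of the 36, with 2 at an unadjusted p under 0.05, and 0% of all genes. The median was -0.17, with 30 of 36 below 0. It was -0.11 without vehicle 1 and also -0.11 with quantile normalization repeated. Of the 719 genes called higher with tamoxifen averaged over rapamycin, 60.5% had a negative interaction (median -0.07), as did 51.8% of all genes (median -0.01). The member of smallest p was Nop2, at -0.61 ± 0.27 (adjusted p = 0.9999): its tamoxifen change was 0.99 ± 0.20 without rapamycin and 0.37 ± 0.18 with it. A p that misses the threshold does not show that the changes were equal, and for a member the standard error of the interaction ran from 0.18 to 0.47.

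Averaged over mice with and without tamoxifen, rapamycin gave 0 calls in limma among the 36, with 3 at an unadjusted p under 0.05, where 0.0316% of all genes rose and 0.018% fell. The median was -0.11 against -0.02 over all genes. It was -0.0683 without vehicle 2, -0.0424 without tamoxifen 2, -0.0501 without the second combined array, -0.0736 with quantile normalization repeated and -0.0305 with the squamous covariate. Ltv1 had the smallest p. It read 7.80 and 8.04 in vehicle, 8.16 and 8.45 in tamoxifen, 7.76, 7.52 and 7.71 in rapamycin, and 7.82 and 7.97 in the combined group, a change of -0.33 ± 0.11 (adjusted p = 0.342).

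Arrays of a group also differed from each other in these genes. Vehicle 2 was higher than vehicle 1 for 22 of the 36 (median difference 0.11), and tamoxifen 2 was higher than tamoxifen 1 for 23 (median 0.15). The first combined array was higher than the second for 27 (median difference -0.15, second minus first). The widest gaps between vehicle arrays were in Gnl3, Ncl and Polr1a, whose values are given above. By array, the mean of the 36 genes was 7.44 and 7.56 in vehicle, 8.09 and 8.21 in tamoxifen, 7.48, 7.51 and 7.47 in rapamycin, and 8.02 and 7.91 in the combined group. These means separate the arrays with tamoxifen from those without.

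Some other gene lists also differed in mean between the treatment groups. In bulk tissue, fewer cells of a type and less RNA per cell cannot be told apart. The mean of 23 cell cycle genes was 7.40 and 7.35 in vehicle, 8.42 and 8.46 in tamoxifen, 7.11, 7.09 and 7.05 in rapamycin, and 8.15 and 8.001 in the combined group. With tamoxifen averaged over rapamycin 23 of 23 rose, where 3.24% of all genes rose. The mean of 16 parietal-cell genes was 10.38 and 10.59 in vehicle, 9.38 and 9.95 in tamoxifen, 10.45, 10.64 and 10.47 in rapamycin, and 9.41 and 9.58 in the combined group. In the same averaged comparison 10 of 16 were called lower, where 2.61% of all genes fell. Over the 5 arrays without tamoxifen and the 4 with it, chief cell means ran from 8.85 to 9.04 and from 7.96 to 8.37, fibroblast means from 8.96 to 9.29 and from 9.23 to 9.82, and other immune means from 5.11 to 5.30 and from 5.28 to 5.72. Smooth muscle means ran from 10.64 to 10.95 and from 10.22 to 10.81, and pit mucous means from 13.04 to 13.13 and from 12.82 to 13.12. Neck mucous means ran from 9.25 to 9.86 and from 9.43 to 10.05 and endocrine means from 8.36 to 8.86 and from 8.28 to 9.03. Of these 7 lists, the chief cell ranges did not overlap. The mean of 9 mast cell genes was 6.91 and 7.54 in vehicle, and lower in every treated array: 5.59 and 6.29 in tamoxifen, 5.55, 5.52 and 5.64 in rapamycin, and 5.83 and 5.75 in the combined group. Against vehicle, 2 of the 9 fell with tamoxifen (median -0.94), where 0.784% of all genes fell. With rapamycin 3 fell (median -1.28), where 0.0406% of all genes fell. The squamous means, given by array above, were higher in both combined arrays than in both vehicle arrays. In that comparison all 15 squamous genes were positive (median 3.83) and 0 were called, where 0.41% of all genes rose. The part of these shifts in the rise of the ribosome biogenesis genes was not tested.

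**Figure D4:**
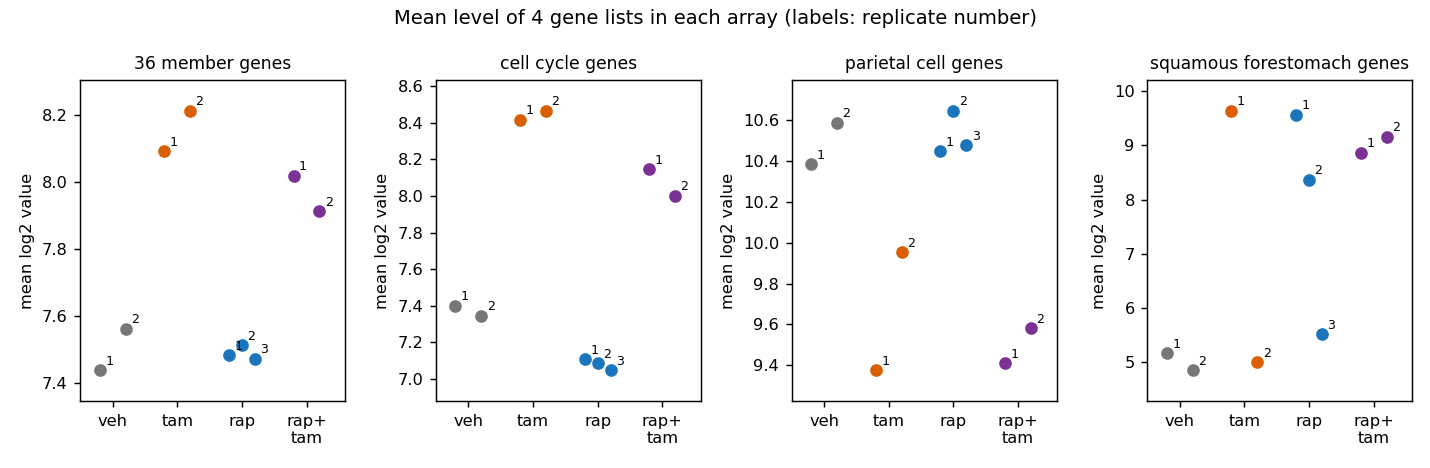
Mean log2 value of the 36 ribosome biogenesis genes and of the cell cycle, parietal-cell and squamous lists in each whole-stomach array, numbered by replicate. The first 2 panels are high with tamoxifen and the parietal panel is low with it. The squamous panel varies within the tamoxifen group (5.00 to 9.64) and within the rapamycin group. It is low in both vehicle arrays and high in both combined arrays.

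The 36 genes were also read in the separated cells, where 5 of them, Wdr12 among these, read under 5 in both fractions. With 1 array per fraction there is no test. The median difference of the parietal-cell genes was 3.22, parietal minus other cells, with 14 of 16 positive, so that fraction carried its markers. The ribosome biogenesis genes were spread around 0, with a median of 0.02 against 0.03 over all genes. Of the 36, 18 were higher, 16 lower and 2, Utp20 and Polr1e, had the same value in both arrays, as had 1056 of all genes. Past a difference of 1, 2 were higher and 1 lower, where 6.32% of all genes were higher and 6.46% lower.

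Rrp12, an export factor of both subunits, read 6.16 in parietal cells and 4.61 in the others, a difference of 1.55. Rrp1b read 5.33 and 4.08 (1.25), and Gnl3 read 8.66 and 7.69 (0.97). In the other direction, Bop1 read 4.51 and 5.67 (-1.17), Nop16 6.14 and 7.03 (-0.89) and Nob1 5.33 and 6.09 (-0.76). Of the PeBoW partners of Bop1, Wdr12 was also lower in the parietal fraction (-0.55) and Pes1 was nearly level (0.05). Nop58 was higher in parietal cells (9.20 against 8.56), while Nop56 was lower (6.71 against 7.38). Npm1 (10.31 against 10.54) and Ncl (9.24 against 9.44) were close. Cell cycle genes, by contrast, had a median of -1.01, with 12 of 23 past a difference of 1 on the low side.

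**Figure D5:**
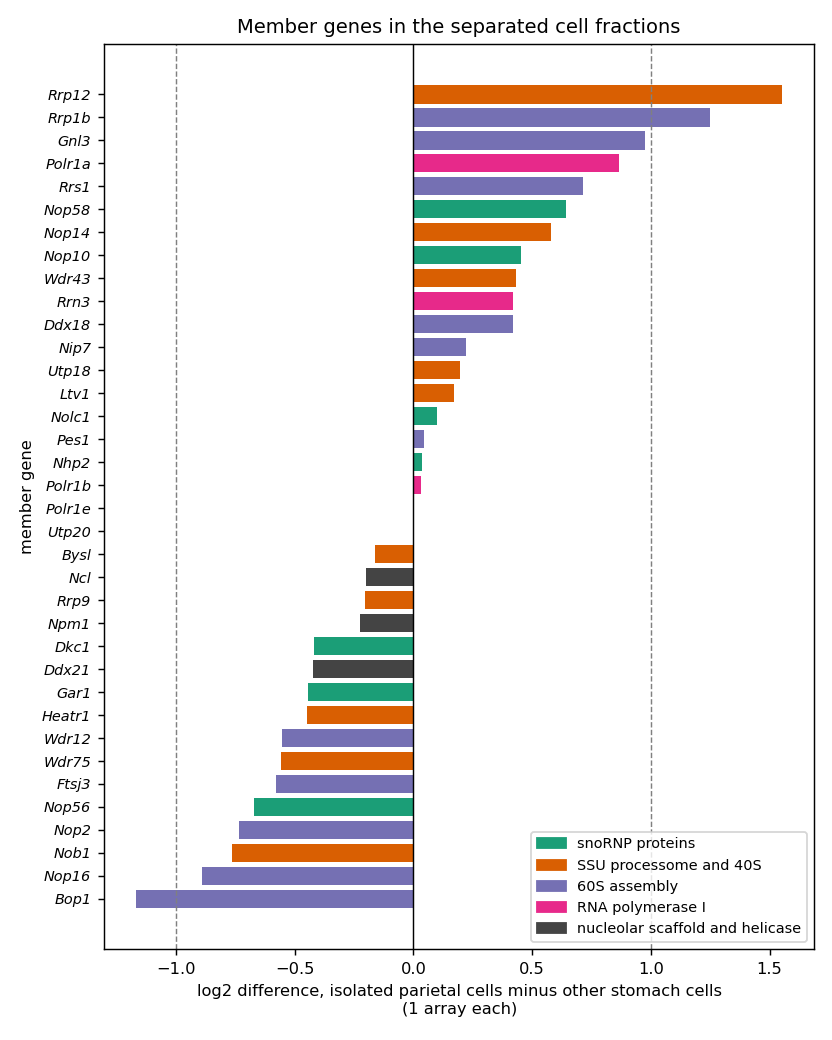
Log2 difference between isolated parietal cells and the other stomach cells for each of the 36 genes, 1 array per fraction, coloured by role; dashed lines mark a difference of 1. Bars run from -1.17 for Bop1 to 1.55 for Rrp12, and most lie between the dashed lines.

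Part of the wider ribosome biogenesis set also rose. Of 139 genes listed outside the members, 130 were measured, and 37 rose and 0 fell with tamoxifen averaged over rapamycin, where 3.24% of all genes rose; 121 were positive, with a median of 0.33. Whether these genes differ from the 36 was not tested. Without the first combined array the count was 10. It ran from 15 to 20 without vehicle 1, tamoxifen 2, any rapamycin array or the second combined array, and was 32 or 33 without tamoxifen 1 or vehicle 2. The list of processome and 40S factors gave 11 of 39 rises (median 0.32), among them Rcl1 (0.55), Noc4l (0.52) and Utp15 (0.56). The 60S list gave 10 of 40 (0.37), among them Rsl1d1 (0.70), Rpf2 (0.73) and Gtpbp4 (0.75). Rsl1d1 read 9.02 and 9.03 in vehicle, 9.87 and 9.79 in tamoxifen, 9.05, 9.05 and 9.03 in rapamycin, and 9.62 and 9.65 in the combined group, with little spread within any group.

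The exosome and RNase MRP, which trim and cut the precursor RNA, gave 9 of 22 rises (median 0.34), led by Rpp38 (0.76), Pop1 (0.77) and Exosc1 (0.56). The snoRNP assembly list gave 5 of 18 (0.34), led by Znhit6 (0.51), Snu13 (0.57) and Ruvbl1 (0.58). The polymerase I list gave 2 of 11 (0.15): Taf1d, of the promoter selectivity factor, at 1.05 and Polr1c at 0.51, while Twistnb, another subunit, stood at 0.32 (adjusted p = 0.133, limma).

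In the Myc network list, 1 of 11 rose with tamoxifen averaged over rapamycin, Myc itself, where 3.24% of all genes rose. It read 8.56 and 8.12 in vehicle, 9.37 and 8.72 in tamoxifen, 8.92, 9.12 and 8.95 in rapamycin, and 9.98 and 9.93 in the combined group. It was highest in the combined group, where the ribosome biogenesis genes were second, and rapamycin alone stood above vehicle. The averaged tamoxifen change was 0.83 ± 0.15 (adjusted p = 0.0139, limma). Mxd4 and Mxi1, which encode Max partners that repress, stood at -0.33 (adjusted p = 0.12) and -0.34 (adjusted p = 0.165).

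Several of the 39 listed genes carry snoRNA genes within their bounds in RefSeq, and 10 of 19 such snoRNAs, in 6 host genes, had a probe set. Of these, 2 rose with tamoxifen averaged over rapamycin, where 3.24% of all genes rose: Snord19 within Gnl3 (0.88 ± 0.12, adjusted p = 0.00373) and Snora75 within Ncl (1.26 ± 0.23, adjusted p = 0.0137, both limma). Snord19 read 3.88 and 3.999 in vehicle, below the array medians. Other snoRNAs of these hosts did not pass, Snord69 of Gnl3 at 0.46 (adjusted p = 0.506) and Snord82 of Ncl at 0.22 (adjusted p = 0.433). The snoRNAs of Nop56 and Nop58 did not pass where their hosts rose: Snord110 stood at 0.19, Snord70 at 0.11 and Snord11 at 0.16. Neither Snord92 (0.41) nor Snord53 (0.62) of Wdr43 passed, nor Snord91a of Tsr1 (-0.08).

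Of the 36 genes, 5 had several probe sets. The second sets of Npm1 (0.76) and Nop56 (0.52) were called with tamoxifen averaged over rapamycin when every probe set was fitted by itself, as were their main sets (0.86 and 0.75). The second sets of Ddx18 (0.19) and Ddx21 (0.42) were not called, nor was the third set of Nop56 (0.69), and neither set of Rrs1 was called (0.36 and 0.07).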

How the data were processed

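Affymetrix arrays measured 11 stomach samples. The authors deposited a table of log2 values for 41345 probe sets, made with RMA in Partek per the submitters' processing notes; no version or setting was stated. The RNA was amplified before labelling, per the labels' protocols. Signal over background is not given, and the number of arrays limits the precision.

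The platform's table gave 23521 probe sets with 1 gene symbol, 1814 with several and 16010 with none; 23328 matched RefSeq gene IDs (GRCm38.p6, used for names and neighbouring genes), and 0 symbols changed. The probe set of highest whole-stomach mean gave 22180 genes, with no filter.

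Limma 3.58.1 in R 4.3.3 fitted 1 mean per group over 9 arrays, with 8 contrasts, and was tested on simulated data. Genes with a Benjamini-Hochberg adjusted p under 0.05 were called. Errors after ± are standard errors. Alternatives changed the normalization, the genes tested, the probe set, the variance model, the covariates and the arrays fitted. Promoter windows came from RefSeq. The members, lists and alternatives were chosen with earlier results of these data known. Arrays were read in full, per member, for up to 3 called genes a role and the genes of smallest p in each contrast.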

Additional observations from a re-analysis of the deposited data

Results flagged for a closer look

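For 5 genes every rapamycin array lay above the vehicle mean, while both combined arrays lay below the tamoxifen mean. They were Nop56 (0.12 without tamoxifen and -0.38 with it), Nop14 (0.10 and -0.24), Nop16 (0.11 and -0.11), Bop1 (0.14 and -0.21) and Rrp1b (0.29 and -0.21). The difference between the 2 changes, the interaction term, was -0.49 ± 0.22 for Nop56, -0.34 ± 0.21 for Nop14, -0.21 ± 0.20 for Nop16, -0.35 ± 0.22 for Bop1 and -0.51 ± 0.23 for Rrp1b. None passed in limma (adjusted p = 0.9999 for each). The share of all genes meeting this rule was not counted. The rule itself selects opposite changes, so the sign of these interaction terms was fixed by it.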

How the results depend on the processing

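Calls depended on the processing more than directions did. For tamoxifen averaged over rapamycin the count of 23 members stayed between 16 and 28 in 9 other fits and between 9 and 23 with 1 array left out. Among those other fits, the one on only the groups compared uses every whole-stomach array and so repeats the main fit. For tamoxifen against vehicle the count of 9 became 5 with arrays centred on their medians and 15 with only genes above the median. That count became 2 with the squamous covariate and 0 when only those 4 arrays were fitted. For the combination against rapamycin the count of 4 became 7 with quantile normalization again, 7 with a trend and robust variance, 10 with only genes above the median and 10 with only those groups. For the combination against vehicle the count of 3 became 6 with only genes above the median, and 0 with centred arrays, the squamous covariate or only those groups. With 1 array left out these 3 counts ran from 0 to 5, 0 to 5 and 0 to 3. The 37 other pathway genes became 24 with centred arrays, 56 with only genes above the median, 22 with the squamous covariate, and 10 to 33 with 1 array left out; these alternatives were chosen after seeing the data. Comparisons of rapamycin, and the interaction, had 0 members called in every fit.

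The labels do not say whether replicate numbers mark pairs. Same-numbered arrays' deviations correlated at 0.56 between vehicle and tamoxifen but at -0.11 between tamoxifen and the combined group. Over all genes, tamoxifen 2 correlated more with vehicle 2 (0.988) than with tamoxifen 1 (0.971). Tamoxifen 1 correlated at 0.992 with each combined array. Some arrays were thus closer to arrays of another group than to their own, and the cause was not tested. With so few arrays these values cannot settle whether samples were paired. With the replicate number as a block, where rapamycin 3 drops out, 16 members were called in the averaged comparison and 0 in tamoxifen against vehicle, the combination against rapamycin and the combination against vehicle, and 17 other pathway genes.

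No called change turned. Among changes that were not called, Nop10 against vehicle ran from -0.0859 to 0.157 with 1 array left out. In the combination against rapamycin, Nop14 ran from -0.00110 to 0.305 and Rrn3 from -0.0345 to 0.0813 in the same fits, Rrn3 was -0.0204 with the squamous covariate, and Rrs1 was -0.0285 by its dimmest probe set. Ddx18 with rapamycin was -0.0226 by its dimmest probe set. Fraction counts of 3 became 3, 3 and 4. The cause of these shifts was not tested.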
